A study of Mus musculus with 14 samples.

Results

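H19, Igf2 and Rasgrf1 are imprinted mouse genes whose control regions carry DNA methylation on the chromosome inherited from the father, and the methylated regions at these genes were followed through MBD-seq peak lists of 14 cell samples. A methylated region was counted as a member when a deposited peak overlapped the body of H19, Igf2 or Rasgrf1 with 10 kb on each side, or the stretch from 30 to 35 kb upstream of the Rasgrf1 start, in the mm9 build of the mouse genome. Peaks of all samples that overlapped by at least 1 bp were merged into regions for the description, and those of the samples compared for each comparison. By this rule 24 of 153099 merged regions, built from 224 of 1063163 peaks, belonged to the loci. The H19 window held 3 regions, the Igf2 window 5, the Rasgrf1 window 15 and the stretch upstream of Rasgrf1 held 1. In the GENCODE annotation of mm9, H19 (ENSMUSG00000000031.9) lies at chr7:149761434-149764048 and Igf2 (ENSMUSG00000048583.9) at chr7:149836673-149852721, both on the − strand, and Rasgrf1 (ENSMUSG00000032356.6) at chr9:89804613-89921814 on the + strand.

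Fibroblasts that had been reprogrammed to induced pluripotent stem (iPS) cells gave 4 Aid+/+ and 4 Aid-/- clones at passage 6, and these were profiled beside unconverted Aid+/+ mouse embryonic fibroblasts (MEFs) of 3 embryos at passage 3 and 3 lines of embryonic stem (ES) cells. The Aid-/- clones carried a disrupted Aid gene, and the study asked whether its loss alters DNA methylation when fibroblasts are turned into iPS cells. The iPS clones and MEFs shared a mixed C57BL6, DBA and 129S4 background, male sex and a Nanog-GFP reporter, which marks pluripotent cells, and each MEF culture came from a single mid-gestation embryo. Every iPS culture was 1 clone, made from MEFs with retroviruses that carried reprogramming factors, selected in puromycin, and grown on gelatin like the ES cells. The ES lines were RF8 (129SV, male, passage 19), MG1.19 (129Ola, male) and B6 ES (C57BL6, sex not given), numbered ES replicates 1 to 3, so that strain and line cannot be told apart within that group.

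MBD-seq pulls sonicated DNA down with a protein that binds methylated CpG and sequences it, so that reads pile up where many methylated CpG lie close together. In each sample the peak caller MACS listed the peaks with a position, a number of tags (mapped reads), a summit and a fold enrichment, the ratio of tags in the peak to the number expected from the surrounding background. A sample without a peak has no deposited count for that region, and the lack of a peak says only that the threshold was not reached. The bulk DNA holds both parental chromosomes, so that a change in the share of methylated cells, in the methylation per cell and on one parental copy cannot be told apart.

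At the H19-Igf2 locus, the long non-coding RNA H19 is made from the maternal copy and Igf2, a growth factor of the insulin family, from the paternal copy. Both genes use the same enhancers. On the maternal chromosome the insulator protein CTCF binds an unmethylated control region just upstream of H19 and keeps the enhancers from Igf2, while methylation of that region on the paternal chromosome blocks CTCF. Rasgrf1 encodes a guanine nucleotide exchange factor that activates Ras, and its control region lies far upstream of the gene beside a tandem repeat and is methylated on the paternal copy. Both marks are set in the male germ line and are kept through the demethylation of the early embryo.

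The sequences at the summits of the peaks that the results turn on are given first. Each is a window of 300 bases around the median summit, read 5′ to 3′ from the + strand of mm9, with every CpG, the target of MBD capture, in capitals. The first window is the peak upstream of Rasgrf1. It holds 29 CpG, more than 99.1% of the central windows of all regions, whose median is 9. Those central windows were placed on region midpoints and not on summits.
Rasgrf1 upstream, chr9:89774447-89774746: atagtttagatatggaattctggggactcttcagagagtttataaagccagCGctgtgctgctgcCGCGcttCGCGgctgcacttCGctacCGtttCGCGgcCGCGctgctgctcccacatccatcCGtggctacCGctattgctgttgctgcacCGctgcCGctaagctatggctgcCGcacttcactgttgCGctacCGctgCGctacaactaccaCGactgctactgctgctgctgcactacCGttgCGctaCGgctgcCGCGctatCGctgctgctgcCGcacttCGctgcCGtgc
The region upstream of H19 held a pair of separate summits, and both windows are shown because peaks there differed in which summit they reached. The window nearer to H19 holds 13 CpG and the farther one 10.
H19 upstream, near summit, chr7:149766052-149766351: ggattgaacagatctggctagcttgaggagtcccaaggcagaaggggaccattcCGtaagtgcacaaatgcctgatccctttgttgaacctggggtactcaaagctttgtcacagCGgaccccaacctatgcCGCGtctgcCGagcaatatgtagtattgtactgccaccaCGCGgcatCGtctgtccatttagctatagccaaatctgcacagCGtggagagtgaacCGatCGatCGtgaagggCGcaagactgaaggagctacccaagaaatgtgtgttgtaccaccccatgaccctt
H19 upstream, far summit, chr7:149767561-149767860: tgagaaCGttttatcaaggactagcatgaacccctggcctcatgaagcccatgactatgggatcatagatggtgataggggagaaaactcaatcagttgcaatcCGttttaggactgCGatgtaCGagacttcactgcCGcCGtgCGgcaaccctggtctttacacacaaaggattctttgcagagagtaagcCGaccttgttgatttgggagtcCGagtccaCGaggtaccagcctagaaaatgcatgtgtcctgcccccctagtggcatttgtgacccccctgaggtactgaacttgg
The next window lies inside Rasgrf1 at 1.3 kb downstream of its start, where peaks were found in all MEFs and in 1 iPS clone. It holds 24 CpG.
Rasgrf1 1.3 kb downstream, chr9:89805739-89806038: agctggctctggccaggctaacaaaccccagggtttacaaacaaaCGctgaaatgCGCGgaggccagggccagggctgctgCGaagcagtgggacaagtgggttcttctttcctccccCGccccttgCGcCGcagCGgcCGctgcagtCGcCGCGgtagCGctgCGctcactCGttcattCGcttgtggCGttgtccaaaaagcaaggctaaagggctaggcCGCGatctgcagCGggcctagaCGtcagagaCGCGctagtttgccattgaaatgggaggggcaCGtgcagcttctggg
The Rasgrf1 windows at 44.2 kb and 85.0 kb downstream of the start, over exon 5 and exon 15 of the 27 exons, and the window 1.0 kb upstream of Igf2 are shown because their tag counts differed between MEFs and iPS cells in opposite directions. They hold 18, 19 and 15 CpG, respectively.
Rasgrf1 exon 5, chr9:89848714-89849013: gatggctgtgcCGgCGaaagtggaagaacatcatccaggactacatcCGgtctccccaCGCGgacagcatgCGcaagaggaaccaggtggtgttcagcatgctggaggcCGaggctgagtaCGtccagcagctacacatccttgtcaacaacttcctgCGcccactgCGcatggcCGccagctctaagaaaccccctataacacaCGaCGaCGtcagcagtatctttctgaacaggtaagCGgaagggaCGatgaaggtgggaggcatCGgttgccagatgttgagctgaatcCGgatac
Rasgrf1 exon 15, chr9:89889469-89889768: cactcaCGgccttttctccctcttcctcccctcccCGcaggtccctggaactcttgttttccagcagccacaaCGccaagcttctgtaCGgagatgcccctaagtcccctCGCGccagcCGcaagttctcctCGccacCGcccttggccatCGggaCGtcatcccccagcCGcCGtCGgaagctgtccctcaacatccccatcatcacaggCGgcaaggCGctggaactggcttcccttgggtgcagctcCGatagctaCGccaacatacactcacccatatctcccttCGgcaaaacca
Igf2 1.0 kb upstream, chr7:149853543-149853842: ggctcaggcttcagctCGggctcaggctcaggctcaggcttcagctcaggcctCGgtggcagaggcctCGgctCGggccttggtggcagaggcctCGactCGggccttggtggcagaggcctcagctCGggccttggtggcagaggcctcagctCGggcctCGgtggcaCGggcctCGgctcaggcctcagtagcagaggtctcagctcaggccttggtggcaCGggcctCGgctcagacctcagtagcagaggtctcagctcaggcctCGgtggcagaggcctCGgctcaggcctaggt

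The stretch upstream of H19 was searched on both strands for GGNGGCAG, a core of the CTCF recognition sequence. It held 5 matches, all on the strand of H19, at 2.166, 2.621, 3.647, 3.766 and 3.891 kb upstream of the H19 start. They are shown with 16 bases on each side, read along the H19 strand, the match in capitals.
Match 2.166 kb upstream: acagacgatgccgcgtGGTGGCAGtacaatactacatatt
Match 2.621 kb upstream: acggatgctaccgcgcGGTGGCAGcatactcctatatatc
Match 3.647 kb upstream: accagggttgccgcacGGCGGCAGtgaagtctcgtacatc
Match 3.766 kb upstream: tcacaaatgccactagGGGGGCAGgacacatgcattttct
Match 3.891 kb upstream: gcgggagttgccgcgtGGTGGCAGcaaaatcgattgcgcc
At least 5 matches were found in 0.707% of windows of the same 2561 bases placed on the 151119 regions that could be searched, and at least 1 in 54.1%. Most regions are shorter than 2561 bases, so that such windows also hold sequence outside the peaks. The Igf2 region 1.0 kb upstream also held 5 matches, within its repeat. In windows of 300 bases the motif was found in 9.11% of all regions and in 8 of the 25 member windows, with both windows upstream of H19 among them. The member windows were centred on summits and those of all regions on region midpoints, so that these shares are not like for like. The Rasgrf1 upstream summit window held no match, although 2 matches lay elsewhere in that region. A match describes letters in the sequence and not bound CTCF.

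The depth of the samples differed between cell types. After MACS removed duplicate tags, the Aid+/+ iPS clones held 9.63 to 15.9 M tags (M, mega), the Aid-/- iPS clones 6.65 to 11.5 M, the ES lines 10.2 to 15.5 M and the MEFs 17.5 to 19.6 M. The peak lists had 78847 to 110943, 69669 to 91985, 33694 to 106385 and 35546 to 57893 peaks in these groups. Peaks took 50.5% to 62.5% of the tags in Aid+/+ iPS cells and 49.6% to 62.2% in Aid-/- iPS cells, but 19.2% to 27.4% in MEFs. Among the ES lines the share was 32.7%, 16.7% and 54.5% for replicates 1 to 3, and ES replicate 2 had the shortest peak list of all. The headers also hold run names and MACS versions, by which the peak lists fall into 4 sets, called runs A to D here, and whether these were processing batches is not stated. Aid+/+ iPS replicate 1 was in run A with 3 Aid-/- clones (replicates 1, 2 and 4) and the other 3 Aid+/+ iPS clones were in run B. The last Aid-/- clone, all ES lines and 1 MEF (replicate 1) made up run C, and 2 MEFs made up run D. Run C is the set called with MACS 1.4.0rc2, and all other lists came from MACS 1.4.1, so that the caller version cannot be told apart from the ES group. Run and cell type cannot be told apart for the comparisons of Aid+/+ iPS cells with MEFs and ES cells.

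Markers of the cell types were checked by peaks within 1 kb of their start sites, which report methylation and not expression. Nanog, a pluripotency factor, had such a peak in 2 of 3 MEFs and in none of the 11 pluripotent samples. Pou5f1, which encodes Oct3/4, had one in all 8 iPS clones and in no ES line or MEF. By pyrosequencing, however, the paper reported that the promoter of this gene was hypomethylated in iPS cells of both genotypes. The gene was also among the factors that the retroviruses carried, and whether tags from those copies added to its peak was not tested. Its peak is therefore not read here as methylation of the promoter. Among the other pluripotency genes, Utf1 had a peak in 1 Aid+/+ and 2 Aid-/- iPS clones, Dppa5a and Tdgf1 in 1 MEF each, and Dppa3 in none. Of the fibroblast genes, Col1a1 had a peak at its start in all 8 iPS clones, in 1 ES line and in no MEF, and Col1a2, Thy1, Twist1 and Postn had none.

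Of the 24 regions, 6 had a peak in all 14 samples. These were the H19 body 1.3 kb downstream of its start, the Igf2 regions 1.0 kb and 3.0 kb upstream of its start, the region 29.9 kb upstream of Rasgrf1, and the Rasgrf1 regions 44.2 kb and 85.0 kb downstream. A further 10 regions had a peak in 7 or more samples, 5 had one in 2 to 6 samples and 3 in 1 sample. The Aid+/+ iPS clones had peaks in 17 to 19 of the regions, the Aid-/- iPS clones in 14 to 20, the ES lines in 9 to 17 and the MEFs in 10 to 14. The number of regions was lowest in ES replicate 2, which also had the fewest peaks genome-wide. The median CpG density was 2.49 per 100 bp over the 24 regions, beside 2.22 over all regions and 2.63 over regions with a peak in every sample.

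**Figure D1:**
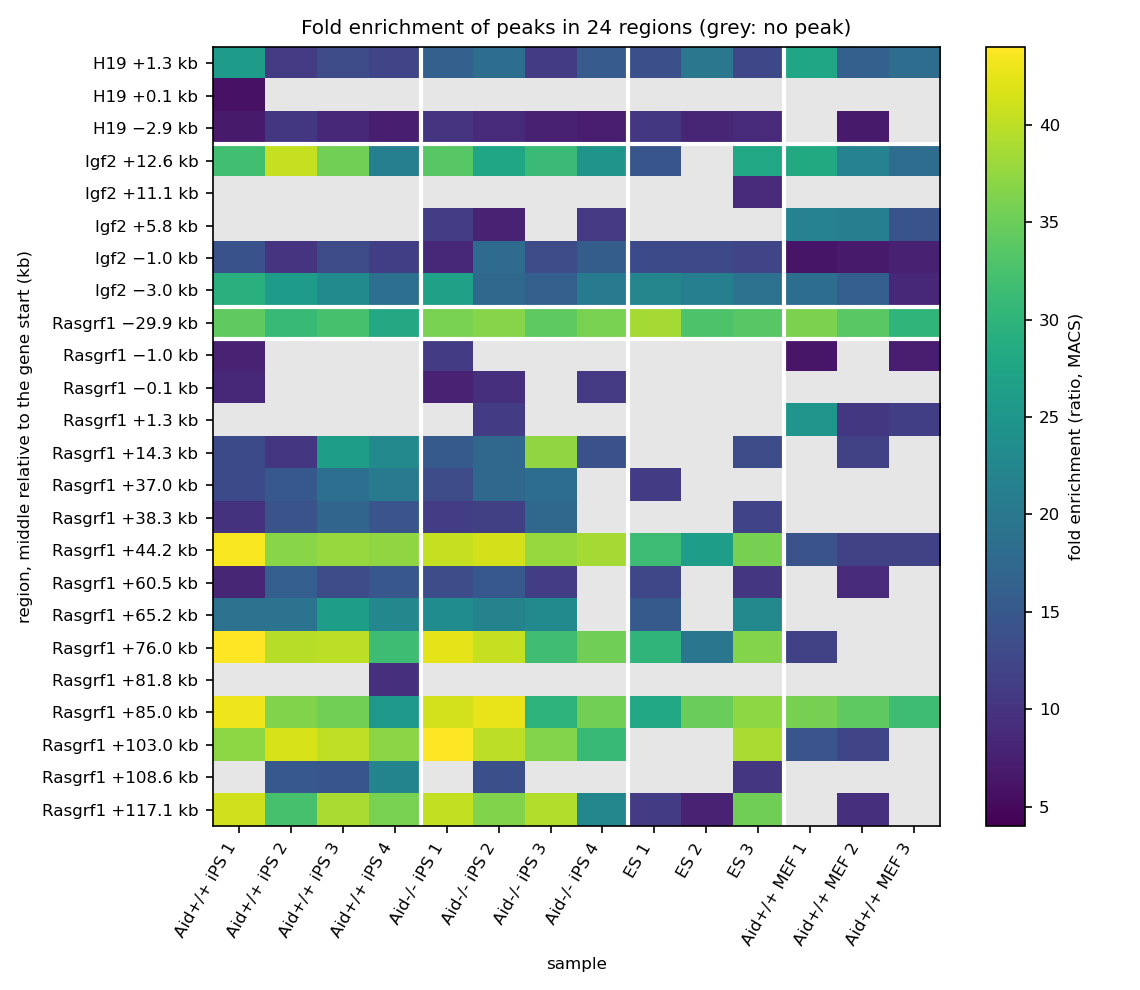
Heat map of the fold enrichment (ratio, colour scale) of the tallest peak in each of the 24 regions (rows, named by the distance of their middle from the gene start in kb) in each of the 14 samples (columns); grey marks a sample without a peak. The 6 regions with a peak in all 14 samples have no grey field, and the Rasgrf1 rows are mostly coloured in most iPS clones and mostly grey in MEFs.

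The stretch upstream of H19, at chr7:149765646-149768206 and starting 1.6 kb before the gene, lies where background knowledge places the paternally methylated control region of the locus. It had a peak in all 8 iPS clones, all 3 ES lines and 1 of 3 MEFs. It is 2561 bp long, longer than 98.4% of all regions, and holds 78 CpG. In the Aid+/+ iPS clones the peaks held 61, 332, 233 and 123 tags for replicates 1 to 4, and in the Aid-/- iPS clones 159, 131, 98 and 113 tags. In the ES lines they held 161, 99 and 243 tags, while MEF replicate 2 had 57 tags and MEF replicates 1 and 3 had no peak. The fold enrichment was low at 8.33 ± 1.62 (SD, n = 4), 8.48 ± 1.23 (n = 4) and 9.26 ± 1.08 (n = 3) in Aid+/+ iPS, Aid-/- iPS and ES cells and 6.87 in the MEF, so that the pluripotent groups overlapped.

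The peaks upstream of H19 fell on a pair of summits. The near summit, at a median of 2.15 kb upstream of the H19 start, was reached in 11 samples, with summit positions that spanned 178 bp. The far summit, at 3.66 kb, was reached in 9 samples within 68 bp. The near peak was present in 3 of 4 Aid+/+ iPS, 4 of 4 Aid-/- iPS, 3 of 3 ES samples and 1 of 3 MEFs, and the far peak in 3 of 4, 3 of 4, 3 of 3 and 0 of 3. Aid+/+ iPS replicate 1 lacked the near peak, and Aid+/+ iPS replicate 4 and Aid-/- iPS replicate 3 lacked the far one. The near peak had a fold enrichment of 8.82 ± 1.58 (SD, n = 3), 8.48 ± 1.23 (n = 4) and 9.07 ± 1.21 (n = 3) in the 3 pluripotent groups, and the far peak 6.72 ± 0.88 (n = 3), 7.45 ± 0.57 (n = 3) and 6.92 ± 2.17 (n = 3). The near summits lay beside the match at 2.166 kb and the far summits beside the match at 3.647 kb.

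**Figure D2:**
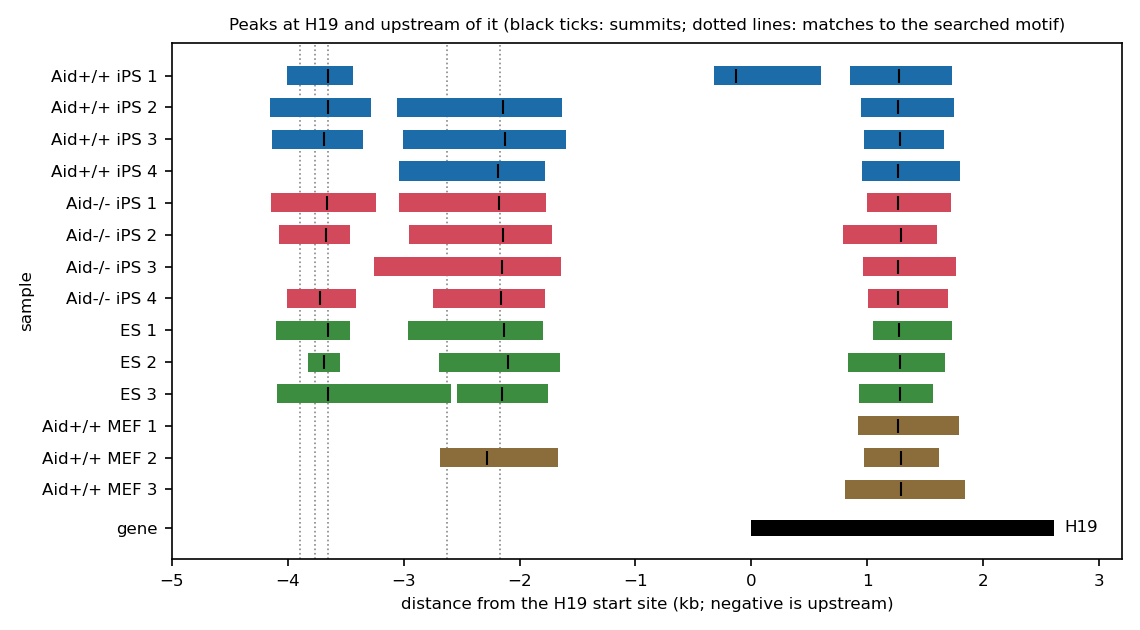
Extent of each peak (coloured bars) with its summit (black tick) in each sample (rows), against the distance from the H19 start site in kb, negative upstream; dotted lines mark the 5 motif matches. The near and far peaks upstream of H19 are present in most iPS and ES samples and only the near one in MEF replicate 2, while the peak over the H19 body, 1.3 kb downstream, is present in all 14 samples.

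The H19 body carried a peak in every sample, at chr7:149762199-149763252, over exons of H19 and the microRNA gene Mir675. It held 252, 161, 125 and 95 tags in Aid+/+ iPS cells, 128, 114, 67 and 109 in Aid-/- iPS cells, 90, 123 and 138 in ES cells and 131, 80 and 87 in MEFs. The fold enrichment was 15.7 ± 7.06 (SD, n = 4), 15.3 ± 3.19 (n = 4), 15.5 ± 3.87 (n = 3) and 20.7 ± 6.12 (n = 3), and the groups overlapped. Aid+/+ iPS replicate 1 stood apart at 26.17 from the other clones of its group at 10.87 to 13.35. That same clone was the only sample with a peak over the H19 start site, with 78 tags and a fold enrichment of 5.83.

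Igf2 had a pair of regions just upstream of its start that were present in all samples and overlap the antisense gene Igf2as. The region 1.0 kb upstream, chr7:149853104-149854266, held 98, 55, 65 and 55 tags in Aid+/+ iPS cells and 45, 67, 62 and 91 in Aid-/- iPS cells. It held 36, 50 and 51 tags in ES cells and 29, 27 and 22 in MEFs. Its fold enrichment was 10.19 to 14.02 in Aid+/+ iPS cells and 6.30 to 7.68 in MEFs, so that the MEFs lay below every Aid+/+ iPS clone. How many of all regions were separated in this way was not counted. The region 3.0 kb upstream, chr7:149855173-149856176, held 187, 120, 135 and 82 tags in Aid+/+ iPS cells, 109, 71, 64 and 123 in Aid-/- iPS cells, 51, 67 and 73 in ES cells and 77, 58 and 33 in MEFs. Its fold enrichment was 18.67 to 29.32 in Aid+/+ iPS cells and 8.41 to 18.49 in MEFs.

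Within Igf2, the region over coding exon sequence 12.6 kb downstream of the annotated start, at chr7:149839445-149840785, had a peak in 13 samples and was lacking in ES replicate 2. It held 152, 70, 66 and 54 tags in Aid+/+ iPS cells and 86, 94, 67 and 87 in Aid-/- iPS cells. ES replicates 1 and 3 held 21 and 213 tags, and the MEFs 70, 47 and 42. The spread between the ES lines was therefore wider than that within the other groups.

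A CpG-rich region of Igf2 showed a peak only in MEFs and Aid-/- iPS clones. It lies 5.8 kb downstream of the annotated start at chr7:149846305-149847528, over an untranslated exon of Igf2 and Igf2as, and holds 78 CpG, or 6.37 per 100 bp, denser than 98.6% of all regions. MEF replicates 1 to 3 had 111, 60 and 50 tags with fold enrichments of 21.78, 21.12 and 14.40. Aid-/- iPS replicates 1, 2 and 4 had 18, 17 and 43 tags with fold enrichments of 11.28, 7.95 and 10.61. Aid-/- iPS replicate 3, the 4 Aid+/+ iPS clones and the 3 ES lines had no peak. The 3 Aid-/- clones with the peak all belonged to run A, where the single Aid+/+ clone had none, and among the clones whose names start with 979 it was present in 2 of 2 Aid-/- and 0 of 2 Aid+/+ clones. Another Igf2 region, 11.1 kb downstream, had a peak in ES replicate 3 alone, with 52 tags.

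The region upstream of Rasgrf1, at chr9:89774090-89775247, ended 29.4 kb before the gene and had a peak in all 14 samples. It held 218, 113, 99 and 50 tags in the Aid+/+ iPS clones and 167, 156, 54 and 201 in the Aid-/- iPS clones. In the ES lines it held 222, 179 and 203 tags, and in the MEFs 316, 239 and 339, the highest counts of all samples. Per M filtered tags this was 9.09 ± 3.59 (SD, n = 4), 14.3 ± 4.19 (n = 4), 15.6 ± 5.30 (n = 3) and 16.1 ± 2.48 (n = 3), in the order Aid+/+ iPS, Aid-/- iPS, ES and MEF. Each neighbouring pair of groups in this order overlapped. The fold enrichment was similar at 31.4 ± 2.54, 35.7 ± 1.11, 35 ± 3.11 and 33.4 ± 2.97 with the same n. Each sample lay between 28.17 and 38.57, although the tags ran from 50 to 339.

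Inside Rasgrf1, 2 regions were present in all samples, both over coding exons. The region 44.2 kb downstream, chr9:89848249-89849376, spans exon 5 and held 160, 142, 168 and 101 tags in Aid+/+ iPS cells and 97, 126, 78 and 82 in Aid-/- iPS cells. It held 57, 41 and 147 tags in ES cells and 31, 31 and 38 in MEFs. Its fold enrichment was 36.84 to 43.57 in Aid+/+ iPS cells and 37.79 to 41.39 in Aid-/- iPS cells. It was 26.21 to 35.75 in ES cells and 11.73 to 14.25 in MEFs. ES cells and MEFs each lay below all iPS clones, and the share of all regions with such a separation was not counted. Against Aid+/+ iPS cells, the median log2 change in fold enrichment over all tested regions was −0.16 in ES cells and −0.26 in MEFs. The region 85.0 kb downstream, chr9:89889025-89890192, spans exon 15 and held 304, 191, 219 and 104 tags in Aid+/+ iPS cells, 192, 188, 87 and 175 in Aid-/- iPS cells, 89, 90 and 190 in ES cells and 273, 175 and 244 in MEFs. Its fold enrichment was 35.1 ± 7.35, 37.3 ± 5.84, 33.4 ± 4.85 and 33.8 ± 2.14, which overlapped between all groups.

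**Figure D3:**
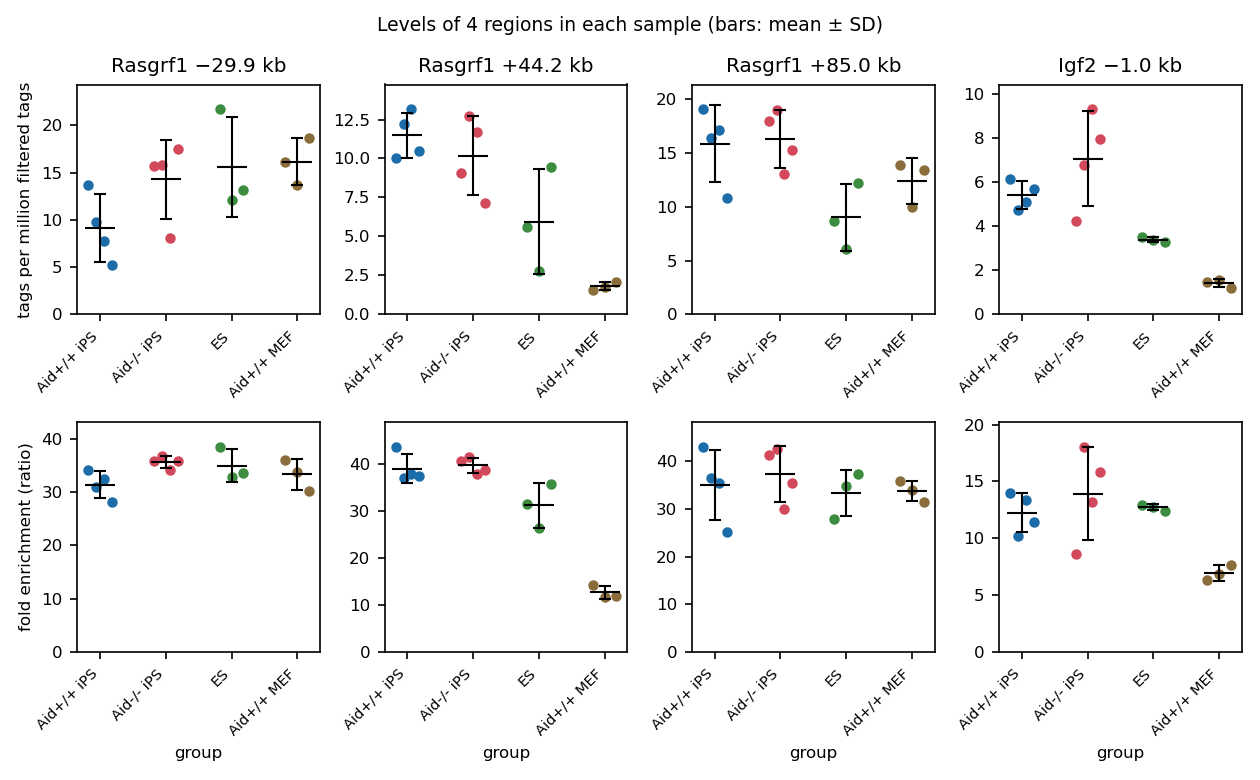
Tags per M filtered tags (upper row) and fold enrichment (ratio, lower row) of 4 regions in each sample (points), by group, with the mean and SD as bars; every axis starts at 0. At 44.2 kb downstream of the Rasgrf1 start the MEFs reach a fold enrichment of 11.73 to 14.25, below all other samples, whereas upstream of Rasgrf1 all 14 samples lie between 28.17 and 38.57.

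Most other Rasgrf1 regions were found in nearly all iPS clones and in few MEFs. The intronic region 76.0 kb downstream held 126, 126, 115 and 71 tags in Aid+/+ iPS cells, 82, 66, 49 and 81 in Aid-/- iPS cells and 60, 28 and 111 in ES cells, while 1 MEF, replicate 1, had a peak with 23 tags. Over exon 23, at 103.0 kb, the clones held 99, 87, 104 and 81 and 78, 76, 47 and 48 tags, ES replicate 3 held 120, and MEF replicates 1 and 2 held 52 and 25. Over the last exon, at 117.1 kb, the clones held 65, 46, 68 and 43 and 63, 46, 34 and 35 tags, the ES lines 12, 15 and 76, and MEF replicate 2 held 21. At these 3 regions ES replicate 3 lay within or above the range of the iPS clones, and ES replicate 2 lay below it or had no peak.

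Weaker peaks lay over exon 2 at 14.3 kb, with 24, 17, 39 and 29 tags in Aid+/+ and 15, 19, 33 and 23 in Aid-/- iPS cells, 22 in ES replicate 3 and 22 in MEF replicate 2. The intronic region at 37 kb held 21, 20, 26 and 39 tags in the Aid+/+ iPS clones, 15, 19 and 17 in Aid-/- iPS replicates 1 to 3 and 17 in ES replicate 1. The next intronic region, at 38.3 kb, held 18, 21, 22 and 20 tags in the Aid+/+ iPS clones, 11, 11 and 14 in Aid-/- iPS replicates 1 to 3 and 21 in ES replicate 3. Neither intronic region had a peak in any MEF. Over exon 9, at 65.2 kb, the Aid+/+ iPS clones held 35, 38, 39 and 50 tags, Aid-/- iPS replicates 1 to 3 held 34, 21 and 31, ES replicates 1 and 3 held 20 and 44, and the MEFs had no peak. Over exon 7, at 60.5 kb, they held 14, 33, 19 and 30, and 20, 16 and 18 tags, ES replicates 1 and 3 held 17 and 22, and MEF replicate 2 held 17. Aid-/- iPS replicate 4, which had the shortest peak list of the iPS clones, lacked a peak at both intronic regions and at exons 7 and 9.

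At the start of Rasgrf1 the CpG-dense regions were mostly without a peak. The region at 0.1 kb upstream, which covers exon 1 and has 88 CpG, had a peak in Aid+/+ iPS replicate 1 and in Aid-/- iPS replicates 1, 2 and 4, with 14 to 37 tags. The region 1.0 kb upstream had 12 to 17 tags in 1 Aid+/+ iPS clone, 1 Aid-/- iPS clone and 2 MEFs. The region 1.3 kb downstream, chr9:89805424-89806356, overlaps annotated coding exon sequence, but none of the 27 numbered exons. It had 50, 23 and 39 tags in MEFs with fold enrichments of 24.79, 10.56 and 11.39, and 13 tags in Aid-/- iPS replicate 2, with no peak in the other 10 samples. The remaining regions, at 81.8 kb and 108.6 kb, had a peak in 1 and 5 samples with 33 tags and 16 to 24 tags.

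The first comparison asked whether Aid-/- and Aid+/+ iPS cells differed at these loci. In edgeR's quasi-likelihood test on the tag counts, run on regions with a peak in all 8 clones and adjusted over 50901 such regions by Benjamini-Hochberg, 0 of the 12 member regions tested passed an adjusted p of 0.05. None had an unadjusted p under 0.05, and DESeq2 and limma on fold enrichment called 0 as well. Of all regions, 0.00196% were called. The 12 log2 changes ran from −0.22 to 0.70 with a median of 0.01, beside 0.00 over all regions, with 6 above and 6 below 0. Upstream of Rasgrf1 the p was lowest, at 0.0504 in edgeR, with a log2 change of 0.70 ± 0.33 (SE) and an adjusted p of 1.00 by edgeR. For the stretch upstream of H19 the change was −0.15 ± 0.35 and for the Igf2 region 12.6 kb downstream 0.43 ± 0.25 on the log2 scale.

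These changes moved with the run and with single clones. With the run as a covariate the change upstream of H19 turned to 1.59 and that of the Igf2 region 12.6 kb downstream to −0.31. That contrast rests on run A, with 1 Aid+/+ clone against 3 Aid-/- clones, since runs B and C each held iPS clones of a single genotype. Upstream of H19 this Aid+/+ clone had 3.83 tags per M filtered tags, beside 9.86 to 14.9 in the Aid-/- clones of run A. Leaving out 1 clone gave −0.45 to 0.29 upstream of H19, above 0 without Aid+/+ iPS replicate 2. It gave 0.28 to 0.80 for the Igf2 region and 0.49 to 1.1 upstream of Rasgrf1, in both cases highest without Aid+/+ iPS replicate 1. The count upstream of Rasgrf1 also differed between runs. Within run A it was 13.7 tags per M filtered tags in the Aid+/+ iPS clone and 15.7 to 17.5 in the 3 Aid-/- iPS clones, whereas the 3 Aid+/+ iPS clones of run B had 5.19 to 9.72 and Aid-/- iPS replicate 3 of run C had 8.12. With the run as a covariate the log2 change was 0.14 and with the clone series as a block 1.44 (edgeR adjusted p = 0.417), so that the size of the difference depended on how the clones were matched.

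No member region had a peak in all clones of one genotype and in none of the other, out of 23 regions found in iPS cells. Among all regions found in iPS cells, 0.0373% were in every Aid-/- and no Aid+/+ clone and 0.177% the reverse. The Igf2 region 5.8 kb downstream came nearest, with 3 of 4 Aid-/- and 0 of 4 Aid+/+ clones. It meets the rule when Aid-/- iPS replicate 3, the clone with the fewest filtered tags, is left out, as did 0.288% of all regions in that setting.

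The length of the windows under peaks was also compared, since it can be computed where a sample has no peak. The H19 window had 2620 ± 452 bp in Aid+/+ and 2558 ± 283 bp in Aid-/- iPS cells (SD, n = 4 each, exact permutation p = 0.83). For Igf2 it was 2373 ± 321 and 2789 ± 494 bp (exact p = 0.286) and for Rasgrf1 6477 ± 622 and 5931 ± 840 bp (exact p = 0.371). The part of the upstream Rasgrf1 region inside its window covered 422 ± 108 and 358 ± 62.2 bp (exact p = 0.343). All these tests were two-sided, and 4 against 4 clones allow no p below 0.0286. Among all gene windows 2.35% and among all upstream stretches 1.96% had an unadjusted p under 0.05.

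MEFs differed from Aid+/+ iPS cells at these loci in both directions. Of the 7 member regions with a peak in all 7 samples, 2 rose and 2 fell in edgeR's quasi-likelihood test adjusted over 23412 regions, of which 43.2% were called, so that a called region was common in this comparison. Tags upstream of Rasgrf1 were higher in MEFs by 2.13 ± 0.29 (SE) on the log2 scale (edgeR adjusted p = 6.89e-05), and those over exon 15 by 0.95 ± 0.22 (edgeR adjusted p = 0.00483). The region over exon 5 was lower, with a change of −1.36 ± 0.24 (edgeR adjusted p = 0.000769), and so was the Igf2 region 1.0 kb upstream with −0.68 ± 0.26 (edgeR adjusted p = 0.0478). This last call was lost in 9 of 14 alternatives, with DESeq2 (adjusted p = 0.0579), with peak length as an offset, with a mean of at least 30 tags and in all but 1 of the fits that left out a sample, and its adjusted p reached 0.187. The H19 body, at 0.06 ± 0.22, the Igf2 region 12.6 kb downstream, at 0.04 ± 0.27, and the Igf2 region 3.0 kb upstream, at −0.53 ± 0.21 (edgeR adjusted p = 0.0569), did not pass. In tags per M filtered tags the MEFs and the Aid+/+ iPS clones overlapped upstream of Rasgrf1, with 16.1 ± 2.48 and 9.09 ± 3.59, and over exon 15. At every other region tested here each MEF lay below all Aid+/+ iPS clones on that scale. Lower values were common genome-wide on it, since edgeR with filtered tags as library size called 18464 of 23412 regions lower in MEFs. The share of all regions without overlap was not counted. The means in MEFs and Aid+/+ iPS cells were 5.34 and 12.3 over the H19 body. They were 2.85 and 6.59 at the Igf2 region 12.6 kb downstream, and 3.02 and 10.3 at the one 3.0 kb upstream. The median of the 7 changes was 0.04, beside −0.05 over all regions tested.

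These changes are relative to the median region, since the normalization sets that median close to 0. With filtered tags as the library size instead, the median of all regions fell by 1.30 in MEFs and the genome-wide calls went from 5548 higher and 4557 lower to 1351 higher and 18464 lower, while limma on fold enrichment gave 1265 and 6403 and peak length as an offset 4599 and 2084. Upstream of Rasgrf1 the MEFs were then still higher, at 0.81, and over exon 5 still lower, at −2.66, whereas exon 15 turned to −0.36. On fold enrichment, which has its own local background, limma gave −1.63 for exon 5 (adjusted p = 0.00031) and −0.81 for the Igf2 region 1.0 kb upstream (limma adjusted p = 0.00501), but 0.09 for the region upstream of Rasgrf1 (limma adjusted p = 0.675) and −0.03 for exon 15. The higher call upstream of Rasgrf1 therefore rests on tag counts. Fold enrichment barely followed the tags there, with 28.17 at 50 tags in Aid+/+ iPS replicate 4 and 30.24 at 339 tags in MEF replicate 3. Its background came from the same sample without a control library, so that it cannot decide whether the tags rose.

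**Figure D4:**
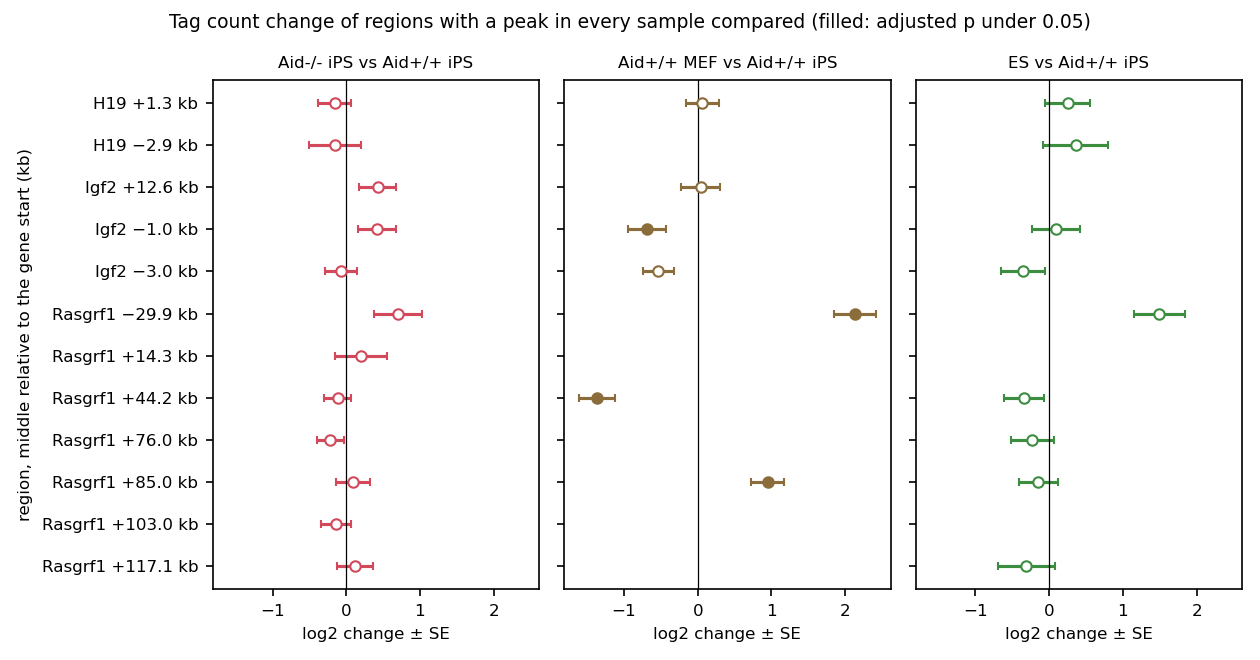
Log2 change in tag count (points, with the SE as bars) of the member regions that had a peak in every sample compared, for Aid-/- iPS, MEF and ES cells, each against Aid+/+ iPS cells; filled points passed an adjusted p of 0.05 in edgeR. Of the MEF points 4 are filled, with the region 29.9 kb upstream of Rasgrf1 at 2.13 and exon 5 at −1.36, and no point is filled for Aid-/- iPS or ES cells.

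By presence alone, 5 of 24 member regions differed fully between MEFs and Aid+/+ iPS cells. The Igf2 region 5.8 kb downstream and the Rasgrf1 region 1.3 kb downstream had a peak in all 3 MEFs and in no Aid+/+ iPS clone, as did 1.45% of all regions. The Rasgrf1 regions at 37, 38.3 and 65.2 kb had a peak in all 4 Aid+/+ iPS clones and in no MEF, as did 13.1% of all regions. Peaks were merged among the compared samples, so that the near and far peaks upstream of H19 counted here as separate regions, and neither met the rule. The near one was found in 3 of 4 Aid+/+ iPS clones and 1 MEF, and the far one in 3 clones and no MEF. The far one met the rule when Aid+/+ iPS replicate 4 was left out, as did 15.2% of all regions in that direction. Leaving out MEF replicate 2 raised the count from 5 to 8 by adding the Rasgrf1 regions over exons 2, 7 and 27.

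The H19 window was covered over 1192 ± 423 bp in MEFs (SD, n = 3) against 2620 ± 452 bp in Aid+/+ iPS cells (n = 4), with an exact permutation p of 0.0286, the smallest that 4 against 3 samples allow, and an adjusted p of 0.141. The Rasgrf1 window was covered over 3738 ± 684 against 6477 ± 622 bp (exact p = 0.0286, adjusted p = 0.141), and the Igf2 window over 3261 ± 257 against 2373 ± 321 bp (exact p = 0.0571). In each of the 3 windows no MEF overlapped the Aid+/+ iPS clones. The upstream Rasgrf1 stretch had 370 ± 51.8 against 422 ± 108 bp (exact p = 0.486). No window passed after adjustment, here or anywhere in the genome. The smallest adjusted p was 0.141 over all gene windows and 0.163 over all upstream stretches. With so few samples the adjusted test could therefore not pass any window in this comparison. An unadjusted p under 0.05 was found in 20.3% of all gene windows and 17.6% of all upstream stretches. When each sample was limited to its 33694 peaks of highest score, the length of the shortest list, the H19 difference shrank from −1427 to −95.2 bp (exact p = 0.857) and the Rasgrf1 difference from −2739 to −745 bp (exact p = 0.343). With a peak p of at most 1e-10 the Igf2 difference shrank from 888 to 56.7 bp (exact p = 0.83), and in summed tags per M filtered tags it turned to −11.1.

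**Figure D5:**
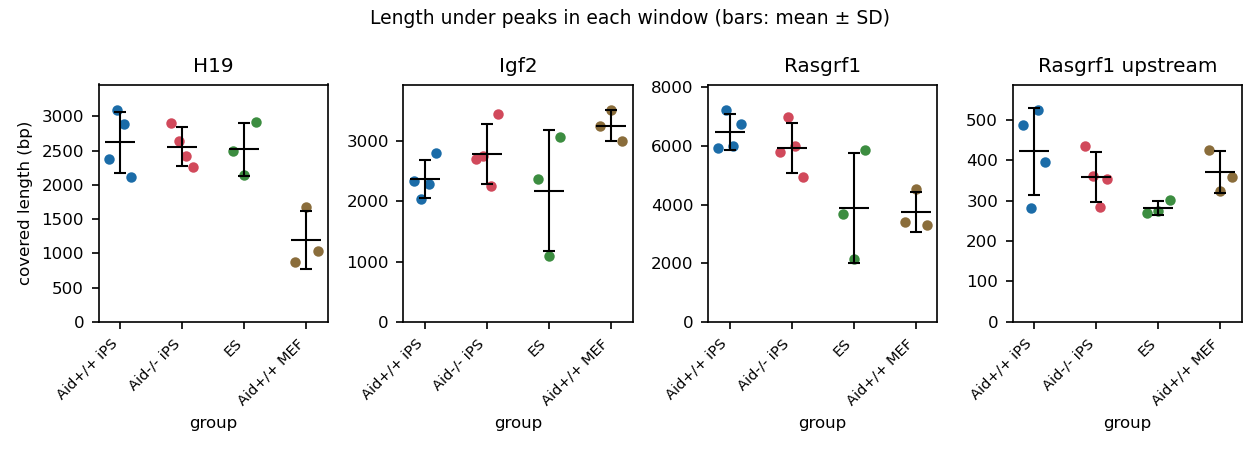
Length under peaks (bp) in the H19, Igf2 and Rasgrf1 windows and in the stretch upstream of Rasgrf1 in each sample (points), by group, with the mean and SD as bars; every axis starts at 0. The MEFs lie at 869 to 1671 bp in the H19 window, below all other samples, and at 3008 to 3522 bp in the Igf2 window, above all Aid+/+ iPS clones.

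Between ES and Aid+/+ iPS cells, a comparison that uses the same Aid+/+ iPS clones as controls, no member region passed the test. edgeR called 0 of the 9 regions tested, with 1 at an unadjusted p under 0.05, DESeq2 called 1 and limma on fold enrichment 0, where edgeR called 0.0165% of 24299 regions. DESeq2, which called 210 higher and 113 lower of 24291 regions, called the stretch upstream of Rasgrf1. To this stretch edgeR gave a log2 change of 1.5 ± 0.35, which missed the threshold (edgeR adjusted p = 0.243). Without ES replicate 3 its edgeR adjusted p was 0.00649, in a fit that called 871 higher and 1601 lower of 24549 regions. The log2 change was 0.36 ± 0.44 upstream of H19, −0.34 ± 0.27 over exon 5 of Rasgrf1 and −0.15 ± 0.26 over exon 15. The median of the 9 was −0.15, beside −0.02 over all regions, and scaling by filtered tags lowered the median of all regions in ES cells by 0.68 and turned the region upstream of H19 to −0.32.

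No member region had a peak in all of one and none of the other of these groups, out of 22, where 0.0216% of all regions did so in ES cells and 0.842% in Aid+/+ iPS cells. The number became 3 without ES replicate 3, all with a peak in the Aid+/+ iPS clones, where 13.6% of all regions were so found. It became 1 in the same direction without ES replicate 1, where the share of all regions was 1.14%. The Rasgrf1 window was covered over 3882 ± 1871 bp in ES cells (SD, n = 3), with 3667, 2127 and 5851 bp in replicates 1 to 3, each below the 5948 bp of the lowest Aid+/+ iPS clone (exact p = 0.0286, adjusted p = 0.772). With equal numbers of peaks the Rasgrf1 difference shrank from −2595 to −431 bp (exact p = 0.343), and the line with the shortest peak list, ES replicate 2, had the least covered length of the ES lines. The H19 window had 2520 ± 387 bp (exact p = 0.83), the Igf2 window 2178 ± 1007 bp (exact p = 0.83) and the upstream Rasgrf1 stretch 281 ± 17.6 bp (exact p = 0.0857). Of all gene windows 2.94% and of all upstream stretches 3.26% had an unadjusted p under 0.05.

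Genes of the same pathways were counted from lists by the same rules. Among 17 other genes of insulin-like growth factor signalling, with 136 regions, 15 regions had a peak in all samples. The Igf2 region 3.0 kb upstream is among them, since it also falls in the window of the neighbouring insulin gene Ins2. In MEFs 10 of the 25 tested regions rose and 4 fell against Aid+/+ iPS cells, where 43.2% of all regions were called, with a median of 0.05 beside −0.05 over all regions, and 4 of the 10 turned lower when scaled by filtered tags. The changes were mixed within Igf1r, which encodes the receptor that Igf2 signals through, since 2 of its regions rose by 2.34 and 1.49 and 4 fell, by 1.08, 1.16, 0.93 and 0.96. Regions at Igfbp5, whose product binds the growth factors, rose by 2.41 and at Irs1, an adaptor of the receptor, by 1.36. Regions at Igf2bp2 (1.61), Igfbp1 (1.28) and Ins1 (1.2), and more weakly at Igf2r (0.82), Igfbp3 (0.78) and Igf2bp1 (0.64), passed as well, of which Ins1, Igf2r, Igfbp3 and Igf2bp1 turned lower under that scaling. The larger Igf1r rise and Igfbp5 stayed called as higher under it, at 1.07 and 1.14 (edgeR adjusted p = 0.00188 and 0.00156). The smaller Igf1r rise, Igf2bp2, Irs1 and Igfbp1 went to 0.19, 0.33, 0.13 and 0.02. These no longer passed (edgeR adjusted p from 0.30 to 0.97). Igf2r encodes the receptor that clears Igf2.

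Among 7 other Ras exchange factor genes with 57 regions, 1 of 6 tested regions rose in MEFs, at Rasgrp2 by 1.08, and it turned to −0.19 when scaled by filtered tags. Among 8 genes of the methylation and insulator machinery with 64 regions, 2 of 8 tested regions rose and 2 fell. Both counts stand beside the 43.2% of all regions that were called in this comparison. Dnmt3l, a cofactor that helps to set germ line methylation, rose by 1.91. Dnmt3a, a methyltransferase, had 1 region that rose by 1.59 and 1 that fell by 0.95, and Ctcfl, a germ line relative of Ctcf, fell by 0.51. When scaled by filtered tags, the rise at Dnmt3l was 0.62 (edgeR adjusted p = 0.0448). The rise at Dnmt3a was then 0.31 and no longer passed (edgeR adjusted p = 0.315), while both falls stayed lower. By presence, 6 regions of the 5 lists, which hold 312 regions and include further imprinted genes, were found in all MEFs and no Aid+/+ iPS clone, and 21 the reverse, where 1.45% and 13.1% of all regions were so found. The list regions here were merged across all 14 samples, whereas the shares come from regions merged among the compared samples.

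Between Aid-/- and Aid+/+ iPS cells, edgeR called 0 of 108 list regions, with 4 at an unadjusted p under 0.05, and DESeq2 and limma called 0. The lowest p values belonged to a region of Igf1r, with a log2 change of 1.15 ± 0.30 (edgeR adjusted p = 0.94), and one of Rasgrp1, with −0.59 ± 0.25 (edgeR adjusted p = 1.00). Between ES and Aid+/+ iPS cells, edgeR called 0 of 46, with 1 at an unadjusted p under 0.05. DESeq2 called 1, beside 210 higher and 113 lower of 24291 regions, and limma 0. The lowest p values there belonged to Meg3, with −1.57 ± 0.37 (edgeR adjusted p = 0.243), and Igf2r, with 0.75 ± 0.36 (edgeR adjusted p = 0.515).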

How the data were processed

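The members and the gene lists were chosen with earlier results of these data known. Genomic DNA was sonicated, captured with the EpiXplore kit and sequenced by the authors, aligned to mm9 with BWA 0.5.9rc1 after CASAVA 1.8.1, and peaks were called for each sample with MACS 1.4.1 and no control library. Per the file headers, 9 lists came from MACS 1.4.1 and 5 from 1.4.0rc2, with a p cutoff of 1e-05, a background region of 10000 bp and no more than 2 tags retained at one position. The deposited tag count of a peak is the number of tags in it as the authors' MACS run gave it, without normalization. The deposited fold enrichment is the ratio of tags to the local background, and the deposited score is −10 times log10 of the peak p-value. The labels name a GAIIx sequencer and the methods another model.

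Peaks were read as deposited, merged across all samples for the description, and across the samples compared for each test, at an overlap of at least 1 bp, and their tags summed per sample and region. Genes came from a GENCODE annotation of mm9, where Kcnq1ot1 was not matched. Regions with a peak in every sample compared were tested with edgeR 4.0.16 (TMM, quasi-likelihood, Benjamini-Hochberg over all such regions, R 4.3.3), since a sample without a peak has no count, so that regions lost in a group are not tested. The presence rule and exact two-sided permutation tests of covered length (scipy 1.17.1) used all regions and gene windows. The scripts were tested on simulated data. The check of the disrupted gene itself is not reported here. Values in every sample are given for regions with a peak in at least 7 of 14 samples, past a test or the presence rule, or at the control regions, and the other member regions and the listed genes by counts. Replicates were separate clones, embryos or lines, and no 2 samples of a group shared an identical peak list (0% identical peaks). The Aid+/+ iPS clones had names starting with 967 or 979 and the Aid-/- clones with 979 or 981, with 2 clones in each. The paper lists 967 and 979 as experiments of iPS cell establishment. The main tests counted each clone as a replicate, without a term for this number. Alternatives were DESeq2 1.42.0, limma 3.58.1 on log2 fold enrichment, other scalings, a mean of at least 30 tags, a peak p of 1e-10, equal numbers of peaks, a 5 kb flank, an overlap of 100 bp, the run and clone series as terms, and each sample left out. Depth was 20.1 to 36.9 M tags per sample before filtering. Tags are reads without molecular identifiers.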

Additional observations from a re-analysis of the deposited data

Results flagged for a closer look

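In 4 of 64 sets of one measure, region or window and group of 4 clones, 1 clone lay farther from the others than Dixon's 95% limit, and chance flags about 1 in 20 such sets. Over the H19 body, Aid+/+ iPS replicate 1 had a fold enrichment of 26.17, where the other 3 clones had 10.87 to 13.35. The same clone had a fold enrichment of 43.57 at exon 5 of Rasgrf1, beside 36.84 to 37.88 in the others. Over exon 2 of Rasgrf1, Aid-/- iPS replicate 3 had 4.96 tags per M filtered tags beside 1.41 to 2.01 in the others, and a fold enrichment of 37.32 beside 13.86 to 17.29. Aid+/+ iPS replicate 1 was the only clone of its genotype in run A and had the most filtered tags of the iPS clones, and Aid-/- iPS replicate 3 was the only iPS clone in run C and had the fewest. The part of the run or depth in these values was not tested.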

How the results depend on the processing

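Between Aid-/- and Aid+/+ iPS cells, no alternative called a member region. The change upstream of H19 turned to 0.035 with limma, to 0.022 with the clone series as a block and to 1.59 with the run as a covariate, and that at the Igf2 region 12.6 kb downstream to −0.11 with limma and −0.31 with the run. Equal numbers of peaks turned the Rasgrf1 window difference to 51.8 bp, and summed tags per M filtered tags turned the upstream Rasgrf1 stretch to 5.18. Leaving out 1 clone gave −0.45 to 0.29 upstream of H19 (above 0 without Aid+/+ iPS replicate 2), −231 to 96.7 bp in the H19 window, and 0 to 1 regions by presence (1 without Aid-/- iPS replicate 3).

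Between MEFs and Aid+/+ iPS cells, exon 5 of Rasgrf1 passed in 15 of 15 alternatives (−2.66 to −1.17) and the stretch upstream of Rasgrf1 in 14 of 15 (missed with limma). Exon 15 turned to −0.36 with filtered tags as library size and to −0.030 with limma, and the Igf2 region 1.0 kb upstream missed the threshold in 9 of 14 alternatives (edgeR, DESeq2 or limma adjusted p up to 0.187). With peak length as an offset 2 regions were called, and with equal numbers of peaks 3 regions differed by presence. With a peak p of 1e-10 or equal numbers of peaks, 0 windows had an unadjusted exact permutation p under 0.05. Summed tags per M filtered tags gave −11.1 for the Igf2 window and 7.04 for the upstream Rasgrf1 stretch. Leaving out 1 sample gave 3 to 4 called regions and 5 to 8 by presence (8 without MEF replicate 2). It gave 0 windows with an unadjusted exact permutation p under 0.05, a level that the test then could not reach.

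Between ES and Aid+/+ iPS cells, DESeq2 called 1 region. The change upstream of H19 was −0.32 with filtered tags, the H19 window difference 595 bp with equal numbers of peaks, and the upstream Rasgrf1 stretch 6.53 in summed tags per M filtered tags. With equal numbers of peaks or a peak p of 1e-10, 0 windows had an unadjusted exact permutation p under 0.05. Leaving out 1 sample gave 0 to 1 called regions and 0 to 3 by presence. Without ES replicate 3 there were 1 called and 3 by presence, where 13.6% of all regions were in every Aid+/+ iPS clone and no ES line. Without ES replicate 1 there was 1 by presence. Leaving out a sample gave 0 windows with an unadjusted exact permutation p under 0.05, a level that the test then could not reach. The differences ran from −299 to 87.8 bp in the H19 window and −645 to 349 bp in the Igf2 window. The cause of these shifts was not tested.

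Genome-wide, DESeq2 called 4 higher and 20 lower in Aid-/- iPS cells (edgeR 0 and 1) and 210 higher and 113 lower in ES cells (edgeR 3 and 1), and leaving out ES replicate 3 gave 871 and 1601. In MEFs, peak length as an offset gave 4599 higher and 2084 lower and limma 1265 and 6403. Regions without a peak in 1 sample could not be tested, which limits the tests in ES replicate 2 most. The clone series in the names (979 holds clones of both genotypes) served as a block for the iPS comparison, with 0 regions called in it genome-wide, and the labels pair no samples of the other comparisons.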

Other observations

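Other imprinted loci were counted by the same rules. The maternally methylated loci, of which 7 genes were matched and held 30 regions, had 7 regions with a peak in all 14 samples, at 6 genes. In MEFs 4 of the 9 tested regions were higher than in Aid+/+ iPS cells by edgeR and none was lower, with a median log2 change of 0.46 beside −0.05 over all regions, of which 43.2% were called. They were Grb10, an adaptor that restrains growth factor receptors (1.25 ± 0.27 SE), Plagl1, a zinc finger protein (0.73 ± 0.18), Peg10 (0.67 ± 0.21) and Peg3 (0.47 ± 0.17). All 4 turned below 0 when scaled by filtered tags, with Grb10 at −0.05 and Peg3 at −0.82.

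The other paternally methylated loci held 25 regions at 3 genes, none of them with a peak in all 14 samples. The single region tested, at Dlk1, which encodes a growth regulator, was higher in MEFs by 0.76 ± 0.21 (edgeR adjusted p = 0.0111) and at −0.51 when scaled by filtered tags. By presence, 2 regions of these loci were found in all Aid+/+ iPS clones and no MEF, and none the reverse, where 13.1% and 1.45% of all regions were so found. Again the counts come from regions merged across all 14 samples and the shares from regions merged among the compared samples.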
